A study of Mus musculus with 12 samples.

Results

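A 3.5 Mb segment of mouse chromosome 15 was examined gene by gene in hearts of a Slit2 transgenic line and of C57BL/6J mice. Its members were the genes that start between positions 78000000 and 81500000 (mm10) and had a nonzero value in at least 1 library, with 1 gene left out by the rule, which gave 96 of the 28242 genes with a nonzero value in the whole series. The segment was chosen by its line difference: genes that differed between the 2 lines had been seen to cluster there. Every difference between lines is therefore given below as a description without a test, and the tests are kept for ischemia-reperfusion (IR), which the choice did not use.

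RNA was sequenced from hearts of male mice aged 3 to 5 months, in 12 libraries, 3 for each of 4 groups. C57-non-IR and C57-IR hearts carried no transgene. Slit2-non-IR and Slit2-IR hearts came from the Slit2-Tg line, which carries a full-length human Slit2 cDNA under the CMV promoter. The line was founded by injection into oocytes of a C57 × CBA F1 cross, its labels give the strain as C57BL/6J, and the transgene and any other genetic difference between the lines cannot be told apart in this design. All hearts were perfused ex vivo on a Langendorff apparatus for 80 min. IR hearts went through 20 min without flow and then 40 min of reperfusion within that time, and non-IR hearts were perfused throughout. The genotype was taken from the labels, and non-IR or IR from the letters of each sample name read against the methods.

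Expression is given as FPKM as deposited, fragments scaled to gene length and to a size factor of each library. That factor followed the median ratio of a library's reads to the geometric mean over libraries, not its total reads. Between 16601154 and 24841291 reads on genes stood behind each library. Of these, 23.9% to 26.0% were mitochondrial in the C57BL/6J hearts and 19.7% to 23.8% in the Slit2-Tg hearts, without overlap. What part this share has in the line differences was not tested. The mouse Slit2 row, on chromosome 5, lay between 0.085 and 0.813 FPKM in the Slit2-Tg hearts and between 0.180 and 0.282 in the C57BL/6J hearts, and as the transgene is a human cDNA this row does not check the labels. All 6 cardiomyocyte markers were detected, with a sum of 12111 to 18519 FPKM per library. Slit2-IR replicate 1 stood apart in 4 atrial markers, which summed to 1650 FPKM there and to 19.9 to 227 FPKM in the other libraries.

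The segment is gene-dense and its genes do unrelated work. It holds Rpl3, a protein of the large ribosomal subunit near the peptidyl transferase centre, and Apobec3, a cytidine deaminase that restricts retroviruses. It also holds Cbx6 and Cbx7, chromodomain subunits of Polycomb repressive complexes, Pdgfb, a growth factor of endothelial cells that recruits pericytes, and Maff, a small MAF transcription factor that binds DNA as a dimer with itself or with larger bZIP proteins. Neighbours in such a segment need share no function, but they are inherited together.

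Of the 96 members, 76 are annotated as protein-coding and the others are mainly small RNAs, antisense RNAs, lincRNAs and pseudogenes. Enough reads for testing, defined as what 10 reads are worth at median depth, reached in 3 or more libraries, were found for 68 members, 66 of them protein-coding. The 28 members below that level had at most 21 reads in any library and a mean of at most 2.38 FPKM. Among the tested members, 22 had a mean of at least 10 FPKM, 33 lay between 1 and 10, and 13 lay below 1. The median of their mean levels was 4.50 FPKM, against 3.00 for all 15240 tested genes. Lgals1, a galactoside-binding lectin, was the most abundant at 224 FPKM, followed by Polr2f, a subunit shared by the RNA polymerases, at 96.9 and H1f0, a linker histone, at 59.4. Tomm22 (45.8), Rpl3 (42.8), Rbx1 (39.6), Eif3l (32.4) and Maff (30.8) completed the 8 highest.

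For 9 members the values of the lines did not overlap, in the same direction in both conditions. Their 3 Slit2-Tg hearts all lay above, or all below, the 3 C57BL/6J hearts without IR and again after IR. They were 13.2% of the 68 tested, beside 134 genes or 0.879% of all tested genes, a contrast that the choice of the segment used and from which nothing is read. C1qtnf6, Pvalb, Elfn2 and Pla2g6 were higher in Slit2-Tg hearts. Rpl3, Slc25a17, Apobec3, Tomm22 and an unnamed row were lower. The 9 gene starts spanned 3.13 Mb, nearly the whole segment, with members whose lines overlapped between them.

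**Figure D1:**
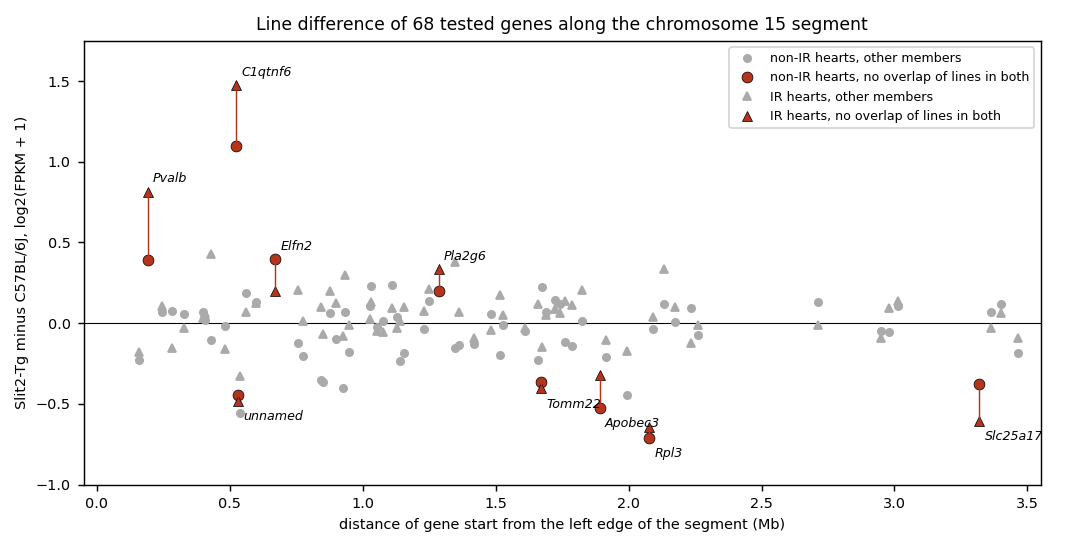
Difference between lines (Slit2-Tg minus C57BL/6J, log2(FPKM + 1), group means of 3 hearts) of the 68 tested members against the distance of their start from the left edge of the segment in Mb. Circles are non-IR and triangles IR hearts, and red marks the 9 members whose lines did not overlap in either condition; 4 of these lie above 0 and 5 below, and some grey members, such as Sstr3 at -0.56 without IR, lie farther from 0 than the red ones with the smallest differences.

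C1qtnf6 had the largest line difference of the 9 on the log2(FPKM + 1) scale, while by the ratio of mean FPKM the low genes Pvalb (4.06-fold) and Elfn2 (3.49-fold) differed more. It encodes a secreted protein of the C1q and TNF related family (chr15:78523346-78529625, minus strand). Its level was 4.18, 3.97 and 3.10 FPKM in the C57-non-IR hearts and 3.08, 2.55 and 3.28 in the C57-IR hearts. Slit2-non-IR hearts had 7.24, 7.94 and 13.1 FPKM and Slit2-IR hearts 8.67, 7.26 and 15.6. Every Slit2-Tg heart thus lay above every C57BL/6J heart, and replicate 3 was the highest of both Slit2-Tg groups. The mean over both conditions was 2.97-fold higher in the Slit2-Tg line, and the difference on the log2(FPKM + 1) scale was 1.10 without IR and 1.47 after IR. Between 121 and 837 reads lay on the gene in a library. The 250 bases before its annotated start (RefSeq, GRCm38.p6, chr15:78529652-78529901, minus strand) are shown because this gene differs most on the log2(FPKM + 1) scale, with matches to a CCAAT box, an AP-1 site (TGACTCA) and a GC box (GGGCGG) in capitals.

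C1qtnf6 promoter: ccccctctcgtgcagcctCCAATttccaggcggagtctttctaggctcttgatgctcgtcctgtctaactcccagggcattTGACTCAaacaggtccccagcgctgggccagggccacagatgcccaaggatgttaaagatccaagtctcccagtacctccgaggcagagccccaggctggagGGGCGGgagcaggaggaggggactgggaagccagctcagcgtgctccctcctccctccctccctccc

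TGACTCA was found on either strand in 4.46% of 32851 promoter windows of this length, CCAAT in 33.8% and GGGCGG in 32.7%. A window was listed for 50 of the 68 tested members, and TGACTCA matched in 2 of these, CCAAT in 15, GGGCGG in 30, TATAAA in 1 and the cAMP response element TGACGTCA in 2. A match of letters is not a bound site. The windows of Pvalb, Tomm22 and Apobec3 held none of the 5 motifs.

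The row next to C1qtnf6 carried no gene symbol or type (chr15:78530916-78536290, plus strand). Both neighbours, C1qtnf6 and Sstr3, lie on the minus strand. The row begins 1291 bases upstream of the start of C1qtnf6 and ends 725 bases from the end of Sstr3. It was lower in Slit2-Tg hearts, with 2.66, 2.46 and 2.40 FPKM in C57-non-IR, 3.17, 1.90 and 2.21 in C57-IR, 1.74, 1.25 and 1.79 in Slit2-non-IR and 1.44, 1.33 and 1.51 in Slit2-IR hearts. The line difference was -0.44 without IR and -0.48 after IR (log2). Its lines did not overlap in either condition, opposite in direction to C1qtnf6. Sstr3, a somatostatin receptor, was lower by the non-IR values, with a mean ± SD of 0.968 ± 0.405 against 0.330 ± 0.197 FPKM (n = 3 each), and overlapped after IR at 0.635 ± 0.482 against 0.271 ± 0.0967. Adjacent rows thus differed between lines in both directions, C1qtnf6 being higher and the next pair lower in group mean.

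On the log2(FPKM + 1) scale Rpl3 had the largest line difference among the members lower in Slit2-Tg hearts (chr15:80077794-80091868, minus strand). C57-non-IR hearts had 48.2, 50.5 and 44.1 FPKM and C57-IR hearts 52.9, 62.4 and 56.9. The Slit2-non-IR values were 27.3, 22.6 and 38.0 FPKM and the Slit2-IR values 38.8, 43.0 and 28.5. No Slit2-Tg heart reached the lowest C57BL/6J heart. The C57BL/6J mean was 1.59-fold higher, a smaller ratio than those of Sstr3 (2.67), Apobec3 (1.82) and the unnamed row (1.64), and the log2 difference was -0.71 without IR and -0.65 after IR. Among 78 tested genes of cytosolic ribosomal proteins, Rpl3 had the lowest line difference. The other 77 had a median of -0.15, with 5th and 95th percentiles of -0.27 and -0.05, and 1 of them was separated in the same way in both conditions.

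Reads of Rpl3 can be shared with processed copies elsewhere in the genome, which lack introns and keep the coding sequence. Rpl3-ps1 on chromosome X (chrX:13202571-13203780, plus strand) matched the Rpl3 transcript at 99.8% over 1210 bases, with 2 differences, and Rpl3-ps2, also on chromosome X, at 98.8% over 1215 bases with 14 differences and gaps. A stretch of 120 bases from exon 6 of Rpl3 (chr15:80079694-80079813, minus strand, within the coding sequence) is set beside both copies to show how little separates them. Sequences are the GENCODE transcripts, and capitals mark the position at which a copy differs.

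Rpl3: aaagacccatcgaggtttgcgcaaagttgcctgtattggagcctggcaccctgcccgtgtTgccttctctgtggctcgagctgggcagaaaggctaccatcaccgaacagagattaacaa
Rpl3-ps1: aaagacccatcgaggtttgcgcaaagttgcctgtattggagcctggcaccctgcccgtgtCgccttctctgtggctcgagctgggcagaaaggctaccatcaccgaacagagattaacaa
Rpl3-ps2: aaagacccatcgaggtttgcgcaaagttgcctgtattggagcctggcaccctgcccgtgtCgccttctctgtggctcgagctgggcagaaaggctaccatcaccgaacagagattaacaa

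The level of Rpl3-ps1 went the other way. C57-non-IR hearts had 11.5, 10.8 and 8.45 FPKM and C57-IR hearts 12.5, 12.7 and 12.3, whereas Slit2-non-IR hearts had 30.7, 54.8 and 30.3 and Slit2-IR hearts 49.2, 38.3 and 58.3. Every Slit2-Tg value exceeded every C57BL/6J value. Rpl3-ps2 was low in all hearts, at 0.038 to 0.167 FPKM in the C57BL/6J and 0.203 to 1.57 FPKM in the Slit2-Tg line. Within the Slit2-Tg groups the heart with the lowest Rpl3 had the highest Rpl3-ps1, namely replicate 2 of Slit2-non-IR and replicate 3 of Slit2-IR.

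FPKM multiplied by gene length in kb gives normalized fragments that can be added across genes. The copies of at least 97% identity over at least 1000 bases with any value numbered 5. Together they made up 7.13% to 8.61% of the fragments of Rpl3 and its copies in the C57BL/6J hearts and 24.2% to 49.3% in the Slit2-Tg hearts. Rpl3 alone gave 148 ± 9.99 and 179 ± 14.9 normalized fragments in C57-non-IR and C57-IR hearts, and 91.4 ± 24.5 and 115 ± 23.3 in Slit2-non-IR and Slit2-IR hearts (SD, n = 3 each). With the copies added, the sums were 161 ± 11.6 and 195 ± 15.1 in C57BL/6J hearts and 139 ± 16.7 and 175 ± 11.7 in Slit2-Tg hearts. The sums of the 2 lines overlapped in both conditions. On the scale of the fit the mean line difference went from -0.68 for Rpl3 alone to -0.18 with the copies added, which lies within the 5th to 95th percentiles of the other ribosomal protein genes. The sum was made after the values had been seen. Whether reads were placed on the copy in place of the gene was not tested, as the alignments were not used here.

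**Figure D2:**
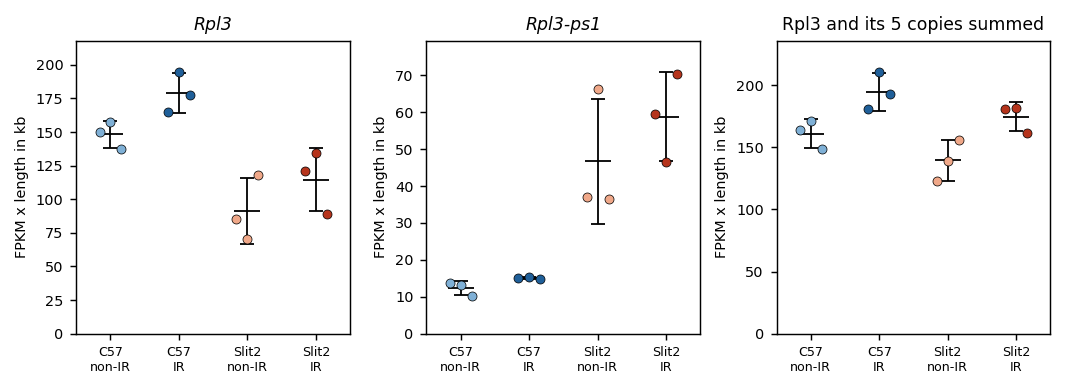
Normalized fragments (FPKM multiplied by gene length in kb) of Rpl3, of its processed copy Rpl3-ps1 and of Rpl3 with its 5 near-identical copies in each heart, with the mean and SD of 3 hearts per group in black. Rpl3 is lower and Rpl3-ps1 higher in every Slit2-Tg heart, while the sums run from 148 to 210 in the C57BL/6J and from 123 to 182 in the Slit2-Tg line.

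Of the other members named here, Tomm22 had 1 partial copy, Gm12906 on chromosome 4 (93.8% over 438 bases), which was at most 0.266 FPKM in any library. Csf2rb2 and its neighbour Csf2rb matched at 95.1% over 3131 bases, so that reads may be split between them. No copy of at least 85% identity over 150 bases with a nonzero value was found for C1qtnf6, Pvalb, Elfn2, Pla2g6, Apobec3, Slc25a17, Maff or Cbx6.

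Apobec3 (chr15:79891659-79915906, plus strand) was the member of the blood and immune list that was lower in the Slit2-Tg line without overlap in both conditions. Its values were 1.98, 1.90 and 1.17 FPKM in C57-non-IR, 0.904, 1.28 and 1.07 in C57-IR, 0.745, 0.691 and 1.13 in Slit2-non-IR and 0.575, 0.799 and 0.627 in Slit2-IR hearts. The lines did not overlap within a condition, although the lowest C57-IR heart lay below the highest Slit2-non-IR heart. The C57BL/6J mean was 1.82-fold higher, with log2 differences of -0.53 without IR and -0.32 after IR. Its 3′ end overlaps that of Cbx7 by 99 bases on the other strand, and Cbx7 was at 4.62 ± 0.469 in C57BL/6J against 3.85 ± 0.216 FPKM in Slit2-Tg hearts without IR, where the lines did not overlap, with log2 differences of -0.21 without IR and -0.10 after IR, where they did. The library kit does not mark strand, so that reads in such overlaps cannot be assigned to 1 gene. The rest of the APOBEC family lies on other chromosomes, and of its genes there Apobec1, the editing enzyme of apolipoprotein B mRNA, and the muscle gene Apobec2, overlapped between lines with mean line differences of -0.09 and 0.02. Apobec4 was at or near 0 in every library. The 9 leukocyte markers, read over 10 rows that all had values, summed to 112 to 243 FPKM in C57-non-IR and 112 to 237 in C57-IR hearts, and to 148 to 215 in Slit2-non-IR and 112 to 187 in Slit2-IR hearts. These ranges overlapped through replicate 1, the lowest of each group. In replicates 2 and 3 the sums were higher in C57BL/6J hearts. They were 243 and 226 against 215 and 198 FPKM without IR, and 221 and 237 against 159 and 187 after IR. The part of leukocyte content in the Apobec3 difference was not tested.

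Both separated members of the mitochondria and metabolism list were lower in the Slit2-Tg line. Slc25a17, a carrier of the peroxisomal membrane (chr15:81318921-81360765, minus strand), had 8.21, 7.64 and 9.91 FPKM in C57-non-IR and 8.97, 10.6 and 9.77 in C57-IR hearts. Its Slit2-Tg values were 6.65, 5.72 and 6.71 without IR and 5.73, 7.03 and 5.57 after IR, all below the lowest C57BL/6J heart. The C57BL/6J mean was 1.47-fold higher, with log2 differences of -0.38 and -0.60. St13, an HSP70 cochaperone that starts beyond it, had a mean line difference of 0.02.

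Tomm22, a receptor of the outer membrane translocase that imports proteins into mitochondria, had 47.8, 55.0 and 52.3 FPKM in C57-non-IR and 54.1, 49.7 and 52.7 in C57-IR hearts. Slit2-non-IR hearts had 40.8, 37.0 and 41.8 and Slit2-IR hearts 32.7, 48.0 and 38.3. Slit2-IR replicate 2, at 48.0, came close to the lowest C57-IR heart, at 49.7, and after scaling to total reads Tomm22 was the 1 member of the 9 whose lines overlapped. Its mean line difference was -0.38. The other members of the list, among them the sulfur transferases Mpst and Tst, the purine synthesis enzyme Adsl and Mief1, an adaptor for mitochondrial fission, overlapped between lines in at least 1 condition.

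Among members higher in Slit2-Tg hearts, Pvalb and Elfn2 were close to the detection limit. Pvalb, a calcium buffer of fast skeletal muscle and of interneurons, had 0, 0.312 and 0.500 FPKM in C57-non-IR, 0.330, 0.0487 and 0.0427 in C57-IR, 0.741, 0.583 and 0.607 in Slit2-non-IR and 1.28, 1.28 and 0.517 in Slit2-IR hearts. At most 32 reads supported a library, and 1 C57-non-IR library had none. Of 4 skeletal muscle markers, Myh4 was at 0 everywhere and the other 3 gave a sum of 524 to 594 FPKM in C57-non-IR, 474 to 795 in C57-IR, 514 to 701 in Slit2-non-IR and 474 to 853 in Slit2-IR hearts, ranges that overlapped. Acta1 and Ckm among them are also expressed in heart muscle, and their part in the Pvalb values was not tested.

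Elfn2, a synaptic membrane protein, had 0.170, 0.153 and 0.0715 FPKM in C57-non-IR and 0.0591, 0.0628 and 0.110 in C57-IR hearts, against 0.587, 0.456 and 0.424 in Slit2-non-IR and 0.163, 0.206 and 0.352 in Slit2-IR hearts. Its reads ranged from 5 to 59 per library. Slit2-IR replicate 1 fell inside the range of the C57-non-IR hearts but above all C57-IR hearts. All Slit2-IR hearts lay below all Slit2-non-IR hearts, while IR and non-IR hearts overlapped in the C57BL/6J line. The mean IR effect of Elfn2 was -0.17 (SE 0.05, adjusted p = 0.081, limma). It passed the threshold without Slit2-IR replicate 3.

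Pla2g6, a calcium-independent phospholipase A2, differed least among the 9 on the log2(FPKM + 1) scale. Its level was 1.73, 1.43 and 1.55 FPKM in C57-non-IR, 1.47, 1.48 and 1.28 in C57-IR, 1.84, 2.05 and 1.97 in Slit2-non-IR and 2.11, 1.80 and 2.21 in Slit2-IR hearts. The Slit2-Tg mean was 1.34-fold higher, with all 6 Slit2-Tg hearts above all 6 C57BL/6J hearts.

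**Figure D3:**
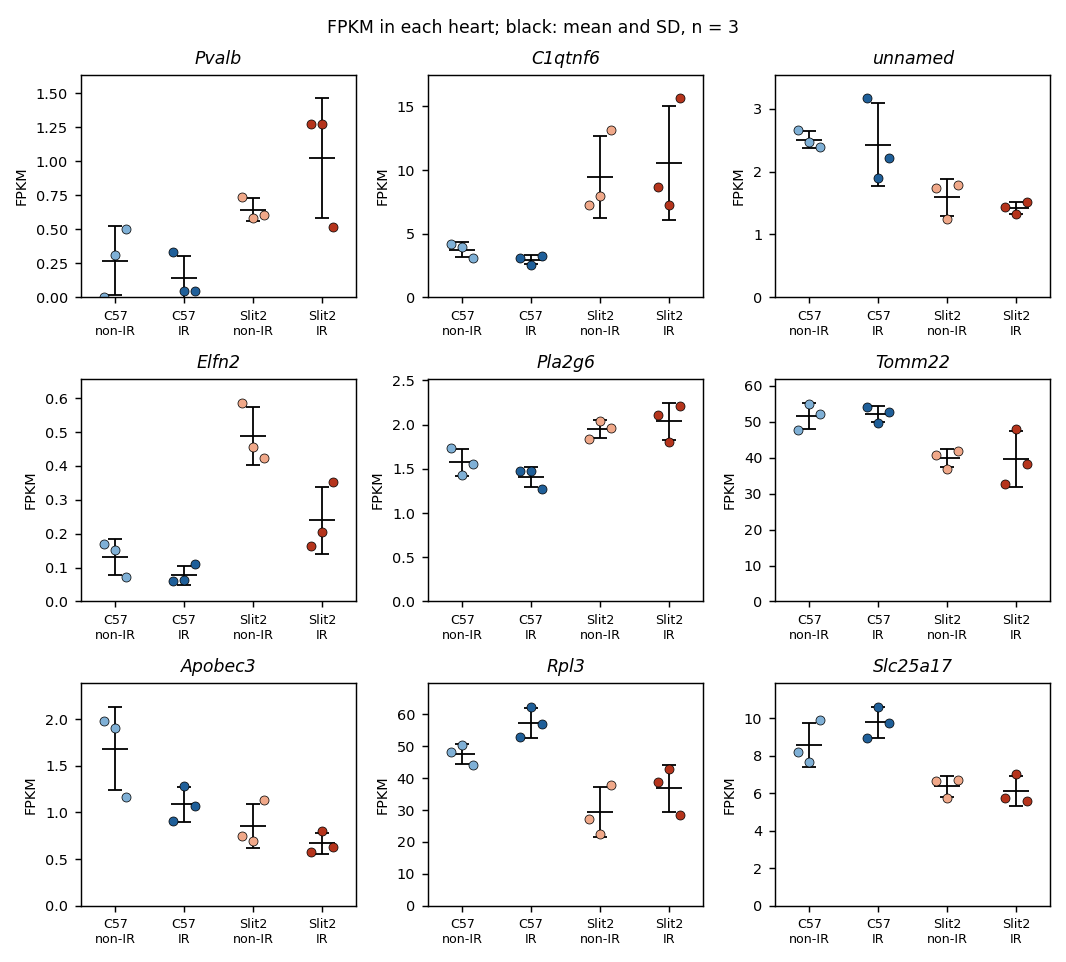
FPKM of the 9 members whose lines did not overlap in either condition, with 1 point per heart and the mean and SD of 3 hearts in black; each panel has its own scale from 0. Pvalb, C1qtnf6, Elfn2 and Pla2g6 lie higher and the other 5 lower in Slit2-Tg hearts, and C1qtnf6 reaches 15.6 FPKM in 1 Slit2-IR heart.

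Without IR alone, 16 members had lines that did not overlap, 23.5% of those tested beside 9.2% of all tested genes, and 12 of the 16 were lower in the Slit2-Tg line. After IR alone there were 10, or 14.7%, beside 6.47% of all tested genes. Members separated without IR only were Sstr3, Cdc42ep1, Lgals1, Polr2f, Cbx7, Pdgfb and Rbx1, each lower in Slit2-Tg hearts. Pdgfb was at 31.1 ± 3.27 against 22.5 ± 1.11 FPKM without IR and at 27.0 ± 6.52 against 23.6 ± 4.21 after IR. Lgals1 was at 243 ± 8.45 against 185 ± 23.5 FPKM without IR and at 241 ± 47.9 against 226 ± 26.6 after IR. Nol12, a nucleolar RNA-binding protein, was separated after IR only, at 2.32 ± 0.153 against 3.09 ± 0.391. None of these is shown to differ between conditions, as the interaction tests below found no member.

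The median line difference over the 68 members was 0.012 against -0.0013 over all tested genes, and the median of its size without sign was 0.0922 against 0.0584. Of the 68, 50 lay between the 5th and 95th percentiles of all tested genes (-0.18 and 0.18). In the window of equal size to the left, from 74500000 to 78000000, 0 of 73 tested genes were separated in both conditions, and in that to the right, from 81500000 to 85000000, 1 of 53 was, Xrcc6, a DNA end-binding protein. Over the rest of chromosome 15 it was 5 of 499.

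At the left edge of the segment, the first members were Ift27, Pvalb and Ncf4. Ift27, a small GTPase of intraflagellar transport, was at 5.72 ± 0.555 and 4.93 ± 0.987 FPKM in C57-non-IR and C57-IR hearts against 4.74 ± 0.560 and 4.25 ± 0.975 in Slit2-Tg hearts. Ncf4, a subunit of the phagocyte NADPH oxidase, had a mean line difference of 0.09. Just outside that edge lay Eif3d, with 13.5 to 17.6 FPKM in C57BL/6J and 13.9 to 16.4 in Slit2-Tg hearts, and Gm17638 and Cacng2, with at most 0.0427 and 0.00894 FPKM. At the right edge the last members were Rbx1, a RING protein of cullin ubiquitin ligases, and Gm17025 and Gm5218, with at most 0.272 and 0.104 FPKM. Rbx1 was lower without IR at 42.3 ± 1.34 against 37.1 ± 1.70 FPKM and overlapped after IR at 40.7 ± 1.19 against 38.3 ± 3.15. Just beyond lay 1110025M09Rik, at 0.296 to 0.704 FPKM in C57BL/6J and 0.0576 to 0.416 in Slit2-Tg hearts, the acetyltransferase gene Ep300, at 2.81 to 4.03 against 2.88 to 4.45, and L3mbtl2, at 1.48 to 1.97 against 1.73 to 2.22. None of these genes outside the edges was separated in both conditions.

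The IR comparison asked which members changed after ischemia and reperfusion. Over both lines, 3 of the 68 members passed limma's moderated test at a Benjamini-Hochberg adjusted p under 0.05, 4.41% close to the 3.49% of all tested genes. Maff and Csf2rb2 rose and Cbx6 fell. Without Slit2-IR replicate 1, the library with high atrial markers, Maff and Cbx6 passed. The number of members separated between lines remained 9, which leaving out a library cannot lower. At an unadjusted p under 0.05 there were 14 members, 8 higher and 6 lower, 20.6% beside 15.9% of all tested genes. The median IR difference of the members was -0.0050, against 0.0036 over all tested genes.

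Maff had 9.14, 11.2 and 9.03 FPKM in C57-non-IR hearts and 22.7, 83.8 and 37.8 in C57-IR hearts. In the Slit2-Tg line it went from 3.98, 13.5 and 11.4 FPKM without IR to 55.0, 68.3 and 43.2 after IR. All IR hearts lay above all non-IR hearts of both lines, with C57-IR replicate 2 the highest. The mean was 4.92-fold higher after IR in C57BL/6J and 5.77-fold higher in Slit2-Tg hearts. On the log2(FPKM + 1) scale the mean IR effect was 2.26 (SE 0.32, adjusted p = 0.0042, limma), with 1.99 (SE 0.45, adjusted p = 0.10) in C57BL/6J and 2.53 (SE 0.45, adjusted p = 0.042) in Slit2-Tg hearts. The mean effect passed the threshold without each of the 12 libraries in turn, at 2.01 to 2.47. The call within Slit2-Tg hearts was kept without C57-IR replicate 1 or 2 and lost without each of the other 10, at adjusted p of 0.055 to 0.16, and the call within C57BL/6J hearts was gained without C57-IR replicate 1 (adjusted p = 0.025, limma). The effects in the 2 lines were not found to differ (interaction 0.54, SE 0.64, unadjusted p = 0.42, adjusted p = 0.9998, limma).

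The 250 bases before the Maff start nearest to the start in the files are shown because Maff had the largest IR effect of the segment (RefSeq, GRCm38.p6, chr15:79347270-79347519, plus strand, 1 of 3 listed starts). Capitals mark 3 GC boxes (GGGCGG) and 1 full cAMP response element (TGACGTCA), which follows the last GC box directly.

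Maff promoter: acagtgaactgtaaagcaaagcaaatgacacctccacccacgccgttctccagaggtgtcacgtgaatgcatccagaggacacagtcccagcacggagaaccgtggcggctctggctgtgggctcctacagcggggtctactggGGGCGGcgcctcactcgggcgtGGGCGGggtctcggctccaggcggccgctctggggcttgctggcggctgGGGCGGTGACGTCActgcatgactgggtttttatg

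TGACGTCA was found on either strand in 1.55% of the 32851 promoter windows and in 1 further member window, that of Xpnpep3, a mitochondrial aminopeptidase. Xpnpep3 had a mean IR difference of -0.10 (adjusted p = 0.72, limma), so that the same letters stood before 1 member that rose and 1 that did not pass the test.

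The small MAF family has 2 other genes, on other chromosomes. Mafk also rose, from 17.4, 19.8 and 17.9 to 26.4, 56.4 and 32.6 FPKM in C57BL/6J hearts and from 13.4, 20.9 and 22.1 to 46.3, 66.8 and 36.3 in Slit2-Tg hearts, with a mean IR effect of 1.15 (SE 0.20, adjusted p = 0.010, limma). Mafg was at 9.36 to 10.2 FPKM in the means of all 4 groups, with an effect of -0.04 (SE 0.09, adjusted p = 0.92, limma).

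Cbx6 had 7.59, 6.87 and 6.30 FPKM in C57-non-IR and 4.87, 4.41 and 4.93 in C57-IR hearts, and 7.25, 6.70 and 7.02 in Slit2-non-IR and 6.56, 4.65 and 5.74 in Slit2-IR hearts. Non-IR and IR hearts did not overlap in either line. The mean IR effect was -0.37 (SE 0.08, adjusted p = 0.029, limma). Among other Polycomb CBX genes Cbx2 fell too, with an effect of -0.37 (SE 0.09, adjusted p = 0.045, limma) from a mean of 1.04 to 0.622 FPKM in C57BL/6J and from 1.07 to 0.558 in Slit2-Tg hearts. Cbx8 and the member Cbx7 did not pass, with effects of -0.15 and -0.23 (adjusted p = 0.27 and 0.21, limma). The call of Cbx6 was lost, at adjusted p of 0.058 to 0.081, without any 1 of C57-non-IR replicates 1 and 2, C57-IR replicate 2 and the 3 Slit2-non-IR hearts.

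Csf2rb2, a beta subunit of the interleukin 3 receptor, was low, with 0.102, 0.201 and 0.225 FPKM in C57-non-IR, 0.335, 0.539 and 0.540 in C57-IR, 0.199, 0.282 and 0.231 in Slit2-non-IR and 0.374, 0.270 and 0.311 in Slit2-IR hearts. IR hearts lay above all non-IR hearts in the C57BL/6J line and overlapped in the Slit2-Tg line. Its mean IR effect was 0.21 (SE 0.05, adjusted p = 0.041, limma) on 8 to 56 reads per library. This scale understates the change of so low a gene: the effect was 0.68 with a pseudocount of 0.1 and 0.92 by limma-voom, and the mean FPKM was 2.68-fold higher after IR in C57BL/6J and 1.34-fold higher in Slit2-Tg hearts. Csf2rb, its neighbour of similar sequence and the shared beta subunit for GM-CSF, interleukin 3 and interleukin 5, had an effect of 0.17 (SE 0.07, adjusted p = 0.23, limma). Csf2rb2 was also the single member with an unadjusted p under 0.05 for the interaction of line and IR (-0.23, SE 0.10, unadjusted p = 0.035, adjusted p = 0.9998, limma). The call for Csf2rb2 was lost without each single library other than C57-IR replicate 1, at adjusted p of 0.058 to 0.11, and after scaling to total reads, at 0.064 (limma). The leukocyte marker sums given above overlapped between non-IR and IR hearts in both lines.

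**Figure D4:**
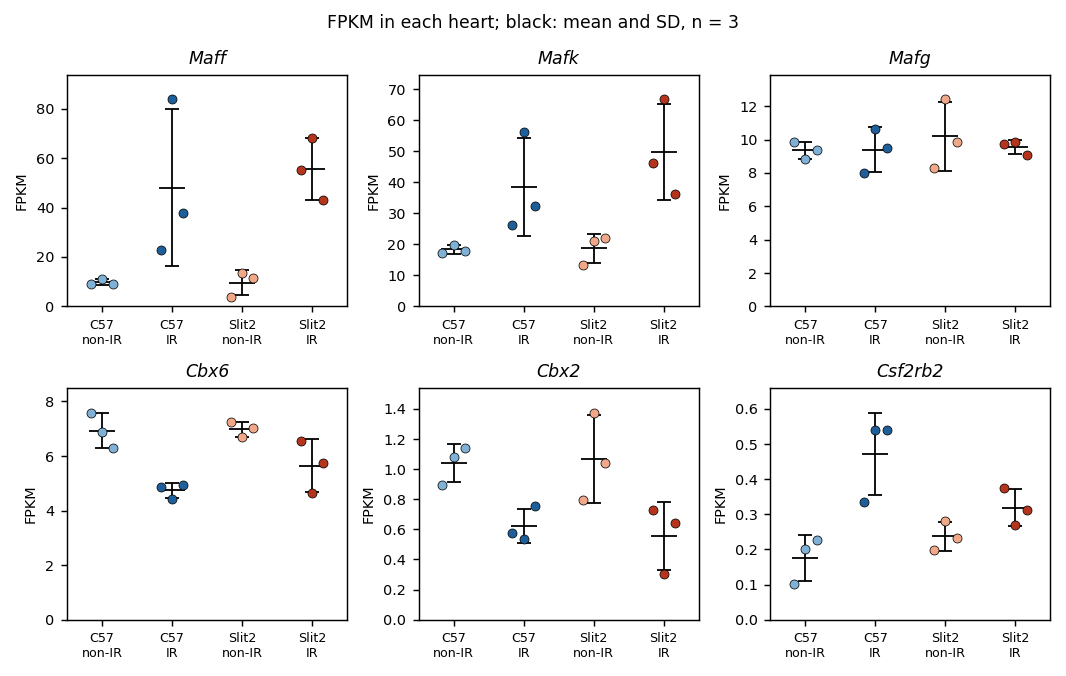
FPKM in each heart, with the mean and SD of 3 hearts in black, of the 3 members that passed the test for the mean IR effect (Maff, Cbx6, Csf2rb2) and of 3 family genes on other chromosomes (Mafk, Mafg, Cbx2). Maff and Mafk are higher and Cbx6 and Cbx2 lower in IR hearts of both lines, while Mafg stays between 7.99 and 12.4 FPKM.

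Members named for the largest mean IR differences that did not pass the adjusted threshold were Kdelr3, Lgals2, Rpl3 and St13, higher after IR, and Card10, Mief1, Apobec3 and Cbx7, lower. Kdelr3, a receptor that returns proteins to the endoplasmic reticulum, had 0.44 (SE 0.13, adjusted p = 0.097, limma). It passed without C57-IR replicate 1, at 0.54 (adjusted p = 0.022, limma). Its C57BL/6J mean went from 3.01 ± 0.402 to 3.88 ± 1.08 FPKM and its Slit2-Tg mean from 2.51 ± 0.370 to 4.48 ± 1.11. Card10, an adaptor of NF-kB signalling, had -0.41 (SE 0.11, adjusted p = 0.082, limma), with 15.9, 9.90 and 9.18 FPKM in C57-non-IR, 8.15, 7.35 and 7.43 in C57-IR, 9.05, 10.5 and 9.67 in Slit2-non-IR and 7.54, 7.37 and 8.27 in Slit2-IR hearts. Its IR and non-IR hearts did not overlap in either line, and it passed after scaling to total reads (adjusted p = 0.031, limma) and without C57-non-IR replicate 1 (adjusted p = 0.044, limma). Rpl3, with 0.30 (SE 0.13, adjusted p = 0.29, limma), stood beside a median of 0.11 for the other 77 ribosomal protein genes, none of which passed the adjusted threshold, and had the same 0.30 with its copies added. The other 5 had effects of 0.34 for Lgals2, 0.21 for St13, -0.25 for Mief1, -0.25 for Apobec3 and -0.23 for Cbx7, with adjusted p of 0.15 to 0.26 (limma).

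Within C57BL/6J hearts, 0 of 68 members passed limma's test with adjustment, beside 0.459% of all tested genes. At an unadjusted p under 0.05 there were 10, or 14.7%, beside 8.96%, and limma-voom on the recovered reads also gave 0 after adjustment. In Slit2-Tg hearts only Maff passed, 1.47% beside 0.525% of all tested genes, and 8 members, or 11.8%, had an unadjusted p under 0.05 beside 11.2%. For the interaction of line and IR, limma called 0 members and 0 genes in all (0%), limma-voom called 0 members, and at an unadjusted p under 0.05 there was 1 member, 1.47% beside 1.86%.

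**Figure D5:**
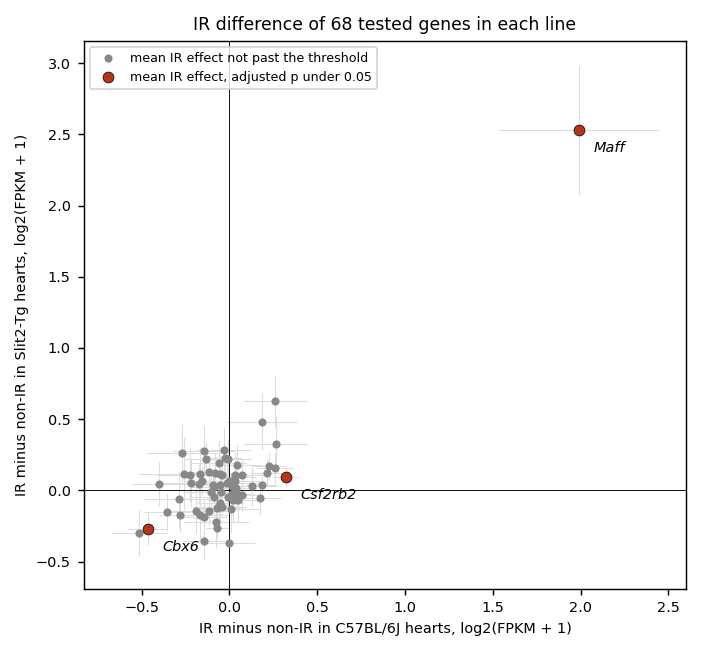
IR minus non-IR difference on the log2(FPKM + 1) scale in C57BL/6J (horizontal) and Slit2-Tg hearts (vertical) for the 68 tested members, with standard errors as pale bars. Maff lies at 1.99 and 2.53, away from the other members, and red marks the 3 members that passed the test for the mean IR effect.

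By role, 9 members of the chromatin and transcription list were tested. None was separated between lines in both conditions, 1 rose with IR (Maff) and 1 fell (Cbx6). In the ribosome and translation list, with 5 tested, Rpl3 was separated and none passed for IR, and Eif3l, a subunit of initiation factor 3, had a mean line difference of -0.02. Of 11 tested members of the blood and immune list, C1qtnf6 was higher and Apobec3 lower in the Slit2-Tg line, and Csf2rb2 rose with IR. The mitochondria and metabolism list had 9 tested members, 2 separated and none past the IR threshold. Signalling and growth factors had 7, with Pla2g6 separated, and ion channels and synapse genes 5, with Pvalb and Elfn2 separated. The 11 tested members for the cytoskeleton, the nuclear envelope and protein quality control showed no separation and no adjusted IR call, and Sun2, a nuclear envelope protein that links chromatin to the cytoskeleton, had 0.20 (SE 0.07, adjusted p = 0.16, limma). The median line difference of these lists lay between -0.02 and 0.06, and their median IR difference between -0.06 and 0.06.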

How the data were processed

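RNA from 12 hearts in 4 groups of 3 was prepared with a NEBNext Ultra kit. The FPKM values deposited by the authors were made from reads aligned with HISAT2 to mm10, as the submitters' processing notes state; how reads were counted, on which annotation and with which strand setting is not given in the sources used here. In each library 100% of the products of FPKM and gene length were whole multiples of a step (tolerance 0.02), which gave back the reads on each gene. There were 0 unused columns of values. Precision is limited by the 16601154 to 24841291 reads on genes per library.

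Tested genes, 15240 of 52858, reached the worth of 10 reads at median depth in 3 or more libraries, with 15 or more reads overall. All 12 libraries were fitted together with limma (moderated test with variance trend, no covariate) on log2(FPKM + 1), which understates the change of low genes, and p-values were Benjamini-Hochberg adjusted over all tested genes at a threshold of 0.05. Contrasts were IR in each line, their mean and their interaction. The line difference, used to choose the segment, was described by values that did not overlap. A simulation with 200 changed genes among 15240 returned 197 for the mean IR effect with 7 false calls. Its changes were equal in both lines and larger than those of most members. Every simulated gene had the same dispersion, and same-numbered libraries shared nothing. It therefore does not show how smaller changes, or libraries that share deviations, are handled. The members, role lists and families were chosen with earlier results of these data known, and not every gene of these families is reported here. Named were members separated between lines in both conditions, members past the IR threshold or among the 5 largest rises or falls of the mean IR effect at an unadjusted p under 0.05, the 3 members and 3 outside genes nearest each edge, the 8 most abundant members, Rpl3, Apobec3 and Rpl3 copies, and examples from the lists; other members, such as those separated in 1 condition, were chosen after their values were seen.

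Copies were sought with BLAST 2.17.0 among GENCODE M21 transcripts for 11 members. Alternatives were a pseudocount of 0.1, no filter, at least 10 reads in every library (13189 genes), the replicate number as a block, a fit restricted to the libraries compared, scaling to total reads, limma-voom on recovered reads, each library left out, and, added after the data were seen, the Rpl3 copies summed. Deviations from group means of same-numbered libraries correlated at 0.143 to 0.294 in all 3 pairs of Slit2-IR and Slit2-non-IR hearts. In C57BL/6J hearts they correlated at 0.0833 to 0.295, where 1 pair was not over 0.1. Same-numbered libraries correlated between lines as well, at 0.154 to 0.362 after IR and at 0.0377 to 0.324 without IR. The numbers therefore cannot be read as pairs of hearts within a line, and what they stand for was not tested. The main fit did not use them. Software was limma 3.58.1 under R 4.3.3, and pandas 2.3.3 with matplotlib 3.10.9 under Python 3.11.15.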

Additional observations from a re-analysis of the deposited data

How the results depend on the processing

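The number of members separated between lines in both conditions was 9, and lay between 7 (at least 10 reads in every library) and 10 over all alternatives run. It was 9 to 10 without single libraries, where it could not fall, as leaving out a library can only keep or add a separation. For the mean IR effect 3 members passed. Without a filter 1 passed, and without single libraries 1 to 4 passed. After scaling to total reads 3 passed, with Card10 in place of Csf2rb2. In Slit2-Tg hearts 1 member passed, Maff, and 0 passed without a filter, in a fit of only the libraries compared, after scaling to total reads, and 0 to 1 without single libraries. In C57BL/6J hearts 0 members passed, 1 with the replicate block (Maff, adjusted p = 0.027, limma) and 0 to 2 without single libraries. In these hearts 1 pair of same-numbered libraries correlated at only 0.0833. The calls over all 15240 tested genes in C57BL/6J hearts moved too, from 70 to 174 with the block and to 254 without C57-IR replicate 1. The block changed no other count of members: 1 in Slit2-Tg hearts, 3 for the mean and 0 for the interaction. For the interaction 0 members passed in every alternative run. Over all tested genes the block moved the calls in Slit2-Tg hearts from 80 to 202 and for the mean from 532 to 773. The interaction called 4 genes without a filter, and 1 without Slit2-IR replicate 3 or without Slit2-non-IR replicate 1. Of the alternatives for single named members, 20 lost and 3 gained the IR call, 173 kept it or stayed short of it, and 0 reversed; the causes were not tested. All 142 alternatives run for the line differences of the 9 members moved them by less than 1 SD between replicates. For most of them this was fixed in advance. The filters and the block leave a difference of group means unchanged, and leaving out 1 of 3 hearts cannot move the mean difference that far. Scaling to total reads could have moved it further, and did so for none of the 9. The sum of Rpl3 with its copies, chosen after seeing the data and not among the 142, did move further, to -0.18 in place of -0.68. Depth limits Pvalb (at most 32 reads), Elfn2 (59) and Csf2rb2 (56).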

Other observations

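Row overlaps were common in the segment: 41 of the 96 members overlapped another row of the files and 28 overlapped a row on the other strand. Rpl3 overlapped the synaptic vesicle gene Syngr1 by 534 bases on the other strand, and Syngr1, at 13.5 to 14.2 FPKM in the group means, had a mean line difference of -0.00019 (log2).

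The nearest tested neighbours of the separated members ranged widely in line difference. Sstr3, beside the unnamed row, was at -0.44 on average over both conditions, Pdgfb, beside Rpl3, at -0.31, Ift27, beside Pvalb, at -0.20 and Slc16a8, beside Pla2g6, at 0.18. Tomm22 lay 3201 bases from Cby1, at -0.23 without and 0.12 after IR, and 1388 bases from Josd1, at 0.22 and -0.14. Slc25a17 lay 2904 bases from St13, at 0.07 and -0.03, and Pla2g6 lay 19151 bases from Maff, at -0.16 and 0.38. The mean levels of Rpl21 and Rpl7a, the ribosomal protein genes next lowest after Rpl3, differed by -0.41 and -0.33 between lines, and Rpl22l1 was at 0.42. None of these 3 was separated in both conditions.

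The muscle-specific paralog Rpl3l, on chromosome 17, was at 164 to 188 FPKM in C57BL/6J and 167 to 192 FPKM in Slit2-Tg hearts, with a mean line difference of 0.01. Among the PDGF genes, 6 in number and all tested, Pdgfb was the sole member of the segment. The others had mean line differences of -0.26 (Pdgfd) to 0.12 (Pdgfa), and none of the 6 was separated in both conditions or passed the adjusted threshold for the mean IR effect.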
